A study of Homo sapiens with 24 samples.

Results

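Genes for ribosome biogenesis and the nucleolus were followed as a set of 44 named protein-coding genes, out of 60660 features in the deposited tables, in prostate cancer cells exposed to Acetalax. Members were chosen by symbol, and a symbol found on several rows stood for the row with the highest mean count. All 44 were found, and all 44 passed the filter on low counts in every fit. The cells were PC3, an androgen-independent line from a bone metastasis, and LNCaP, which depends on androgen and came from a lymph node. The drug, known chemically as oxyphenisatin acetate, was once used as a laxative, and the series studies it in cells high in the cation channel TRPM4. For both lines, parental cells and their chronic-exposure (CE) derivative were sequenced untreated (control) and after 10 µM of the drug for 4 h, with 3 libraries in each of 8 groups. Per the labels' protocols, the CE derivatives came from parental cells passaged in rising drug until they were resistant, and they spent 2 weeks in medium free of drug before RNA was taken. The labels name no vehicle in the controls and do not say whether a CE derivative is 1 clone. The lines were kept in different media, so line and medium cannot be told apart.

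A ribosome is built in the nucleolus, where RNA polymerase I copies the rDNA repeats into a long precursor. Small nucleolar ribonucleoproteins (snoRNPs) modify that precursor, and large assemblies of processing factors cut and fold it into the 40S and 60S subunits. Dividing cells and most tumour cells spend much of their synthesis on this pathway, and the transcription factor MYC is known to drive many of its genes. The members fall into 5 roles. The RNA polymerase I subunits are POLR1A, the catalytic subunit, POLR1B, its large partner subunit, and POLR1C, which is shared with RNA polymerase III. Among 7 genes for snoRNPs and rRNA modification, FBL is the methyltransferase of box C/D snoRNPs, NOP56 and NOP58 are its core partners, and DKC1 is the pseudouridine synthase of box H/ACA snoRNPs. NOLC1 is a chaperone of snoRNPs, RRP9 a protein of the U3 snoRNP, and NAT10 an RNA acetyltransferase. The 17 genes of the small subunit processome and 40S maturation are UTP4, UTP15, WDR43, WDR75, HEATR1, WDR3, TBL3, UTP14A, UTP20, NOC4L, the helicases DDX10 and DDX52, RRP12, BYSL, LTV1, TSR1 and the nuclease NOB1. The 14 genes of 60S maturation are PES1, BOP1 and WDR12, which form the PeBoW complex, with NOC2L, NOC3L, the GTPases GNL2 and GNL3, NIP7, MRTO4, PPAN, RRS1, GRWD1 and the helicases DDX18 and DDX56. The abundant nucleolar proteins are NCL (nucleolin), NPM1 (nucleophosmin) and the helicase DDX21.

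Library totals lay between 40160832 and 57728014 expected counts. In 3 libraries the members and a list of 25 genes for DNA replication and mitosis stood apart from the other replicates of their group. Each library was scored as the median over a list of log2(CPM) minus the gene's mean over all 24 libraries. LNCaP parental control 2 scored 0.16 for the members, against -0.62 and -0.72 in its 2 partners, and 0.82 against -0.56 and -0.55 for DNA replication and mitosis. LNCaP parental Acetalax 3 scored -0.27 for the members, against -0.87 and -0.76, and 0.79 against -0.79 and -0.78 for DNA replication and mitosis. PC3 CE Acetalax 1 scored -0.16 against 0.03 and 0.03 for the members, and -0.60 against 0.82 and 0.79 for DNA replication and mitosis. Counts of members are also given without these libraries for several comparisons. Where a count without 1 library stands alone, the range of shares of all genes is in the closing section, except between the CE lines. The labels call every library epithelial. Summed over 12 epithelial markers, the controls held 7197.5 to 8264 TPM (a transcript level scaled for gene length and library size) in PC3 parental cells and 1834 to 2262 TPM in LNCaP parental cells. In CE controls the same sum was 26.9 to 29.5 TPM for PC3 and 9.03 to 11.8 TPM for LNCaP, so these markers were nearly absent there. The sum of 8 fibroblast markers moved the other way. It was 31.6 to 39.5 TPM in PC3 parental and 2996 to 3003 TPM in PC3 CE controls. In LNCaP it was 9.24 to 23.4 TPM and 986 to 1047 TPM. COL1A2 (2107 to 2119 TPM) and COL3A1 (841 to 853 TPM) made up most of the PC3 CE sum. Of 7 tested in PC3, 6 were called higher in CE controls, beside 38.5% of all genes called higher. The 1 lower was COL1A1, from 29.9 to 38.2 TPM in parental to 10.4 to 12.2 TPM in CE controls. FAP was at most 0.54 TPM in every library. In PC3 CE controls PDGFRA (0.29 to 0.37 TPM) and PDGFRB (0.64 to 1.05 TPM) were also low. DCN stood there at 10.1 to 12.2 TPM and LUM at 12.4 to 14.7 TPM. The 10 luminal prostate markers summed to 5342 to 8349 TPM in LNCaP parental controls and to 14.0 to 16.8 TPM in LNCaP CE controls. Immune markers (8 genes) summed to at most 42.6 TPM in every library. The part of these markers in the results below was not tested.

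The members were most abundant in LNCaP CE cells. Summed over the 44 genes, control libraries held 4598 ± 92.0 TPM (SD, n = 3) in PC3 parental cells, 4966 ± 1285 in LNCaP parental cells, 7080.1 ± 113 in PC3 CE cells and 10555 ± 147 in LNCaP CE cells. The large SD of LNCaP parental controls came from control 2, at 6450 TPM, with the other 2 at 4247 and 4200.0. By group means, 35 of the 44 members were highest in LNCaP CE controls, and 25 were lowest in LNCaP parental cells after Acetalax. NPM1 was the most abundant member, at 1203, 1311 and 1228 TPM in PC3 parental controls and 3744, 3692 and 3622 TPM in LNCaP CE controls, and the 2 sets of libraries did not overlap. In LNCaP parental controls the scarcest were NOC3L, UTP20 and POLR1A, each below 12 TPM in all 3 libraries. The spread over groups also differed between members. From the lowest to the highest group mean, GRWD1 spanned 8.70-fold, POLR1B 8.58-fold and NOC3L 8.04-fold, whereas RRP12 spanned 1.80-fold and DDX10 1.83-fold, with GNL2 below both. In bulk RNA, fewer cells of a type and less RNA per cell cannot be told apart.

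**Figure D1:**
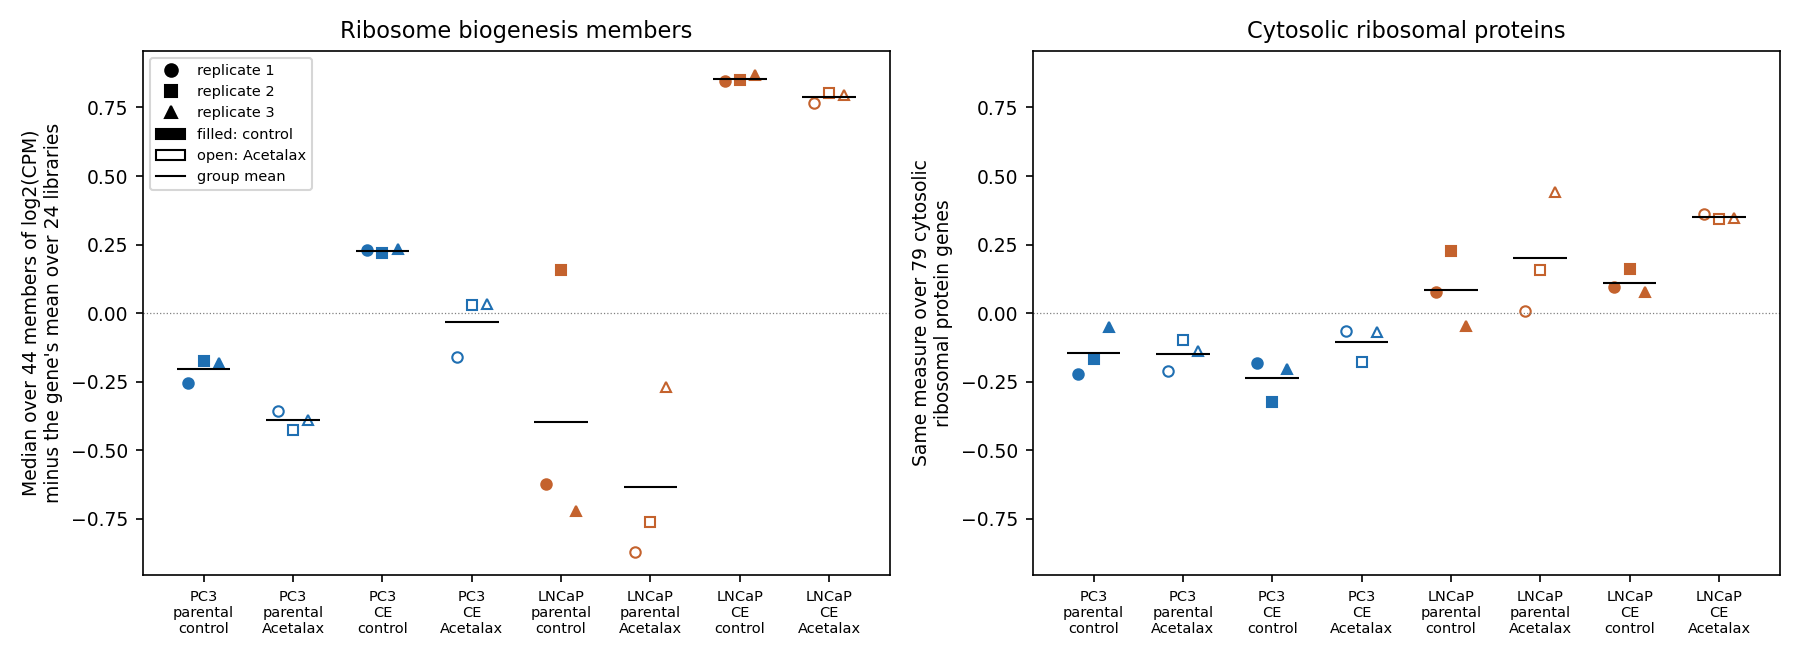
Each point is 1 library; the y axis is the median over a list of log2(CPM) minus each gene's mean over 24 libraries, for the 44 members on the left and 79 cytosolic ribosomal protein genes on the right, with bars at group means. LNCaP CE libraries lie between 0.77 and 0.87 for the members, above all others, and LNCaP parental control 2 (0.16) and Acetalax 3 (-0.27) lie above their group partners.

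Triplicates are biological per the labels, which do not say that cultures were separate, and the p-values below measure the spread between these libraries, which may be technical. The first question was whether 4 h of Acetalax moved these mRNAs in PC3 parental cells. Of the 44 members, 10 fell and 1 rose by edgeR's quasi-likelihood test at an adjusted p of 0.05, or 25% called, beside 7.8% of all 20049 genes tested (3.49% higher and 4.31% lower). The median log2 fold change was -0.19 over the members and 0 over all genes, and 33 members had a negative value. By role, 7 of 17 small subunit and 40S genes fell, as did 1 of 3 RNA polymerase I genes and 2 of 14 genes of 60S maturation, where 1 also rose. None of the 7 snoRNP genes or the 3 abundant nucleolar genes passed, although 2 of 7 and 2 of 3 had an unadjusted p under 0.05.

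WDR3, a component of the small subunit processome, and POLR1B were the members called lower in 3 of the 4 responses to the drug, so the sequence before their starts is shown. Positions are from RefSeq on GRCh38.p14, plus strand, 5′ to 3′, and capitals mark CCGGAA or its reverse complement TTCCGG, a core that ETS family factors bind. Only stretches with this core are printed here, and the core was searched after the sequences had been seen. It was in 18 of 37 members with a promoter read (48.6%) and in 27.1% of protein-coding genes tested. WDR3 lies at chr1:117929720-117966542 and POLR1B at chr2:112541915-112577150, both on the plus strand. The WDR3 stretch (chr1:117929639-117929719, 81 bases) ends at the base before the annotated gene. RefSeq gives POLR1B 2 starts, and 30 bases around the match before each are shown (chr2:112541898-112541927 and chr2:112542412-112542441), both of which reach into the gene as GENCODE draws it.
WDR3: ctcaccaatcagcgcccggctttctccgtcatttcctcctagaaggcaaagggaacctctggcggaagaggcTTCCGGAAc
POLR1B: caggcctccagtCCGGAAgatgcgacgagg
POLR1B: tgcggccactacTTCCGGcgtgtaccgaga

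WDR3 stood at 29.5, 29.9 and 28.9 TPM in the 3 PC3 parental controls and at 12.5, 10.2 and 13.8 TPM after Acetalax. Every treated library was below every control, and the log2 fold change was -1.20 ± 0.10 (adjusted p = 0.000192), or 2.30-fold lower. POLR1B went from 31.6, 30.04 and 31.1 TPM to 15.3, 16.1 and 14.4 TPM. The groups did not overlap, and the change was -1.01 ± 0.10 (adjusted p = 0.000413), 2.01-fold lower. Of the other 2 subunits of the polymerase, POLR1A stood at 20.6, 25.8 and 18.1 TPM before and 15.8, 13.4 and 15.6 TPM after, and POLR1C at 96.8, 94.4 and 96.3 and 65.5, 73.7 and 67.0 TPM. Treated libraries lay below the controls for both genes, but neither passed, at -0.26 ± 0.16 (adjusted p = 0.411) and -0.37 ± 0.12 (adjusted p = 0.0813) on the log2 scale. Further falls were those of UTP4 at -0.42 ± 0.07 (adjusted p = 0.0056), WDR43 at -0.42 ± 0.08 (adjusted p = 0.00721), UTP15 at -0.47 ± 0.11 (adjusted p = 0.0266) and UTP14A at -0.42 ± 0.10 (adjusted p = 0.0301). WDR43, UTP4 and UTP15 belong to the subcomplex of the processome that is tied to rDNA transcription, and its members WDR75 (-0.33 ± 0.15, adjusted p = 0.231) and HEATR1 (-0.18 ± 0.13, adjusted p = 0.514) were not called. DDX10 changed by -0.46 ± 0.11 (adjusted p = 0.0262) and TSR1, a GTPase-like 40S factor, by -0.34 ± 0.08 (adjusted p = 0.0252).

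In 60S maturation, NOC3L fell and BOP1 rose. NOC3L stood at 17.6, 19.3 and 15.6 TPM in controls and 12.5, 11.2 and 12.6 TPM in treated libraries, with no overlap (log2 -0.52 ± 0.13, adjusted p = 0.0289). BOP1 stood at 134, 106 and 133 TPM and then at 190.4, 195 and 189 TPM, again with no overlap (log2 0.63 ± 0.17, adjusted p = 0.0437). Its 2 partners in the PeBoW complex went differently. WDR12 fell from 83.0, 94.4 and 81.8 to 64.4, 68.9 and 67.2 TPM (log2 -0.31 ± 0.07, adjusted p = 0.0207), and PES1 stood at 65.8, 65.1 and 70.8 and 67.2, 63.2 and 64.2 TPM, where the libraries overlapped (-0.16 ± 0.12, adjusted p = 0.518). NCL, NPM1 and FBL gave log2 values of -0.20 ± 0.09, -0.13 ± 0.08 and 0.06 ± 0.07 that did not pass (adjusted p = 0.208, 0.433 and 0.713).

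These counts moved with the libraries in the fit, as did the share of all genes called. With PC3 CE Acetalax 1 dropped from the fit, where it enters the estimate of the spread, 29 members passed (4 higher, 25 lower) beside 27.3% of all genes, and with only the 6 compared libraries 25 passed (4 higher, 21 lower) beside 27%. Leaving out any 1 of the 6 compared libraries gave 4 to 6 members, and the share of all genes called was lower too. WDR3, POLR1B, UTP4 and WDR43 passed in all 14 alternatives run. POLR1A, POLR1C and NCL, not called above, each passed as lower with 1 library left out (adjusted p = 0.00514, 0.000123 and 0.00677). BOP1, DDX10, TSR1 and UTP14A no longer passed when any 1 of the 6 compared libraries was dropped (adjusted p = 0.0668 to 0.186, 0.0547 to 0.112, 0.0574 to 0.134 and 0.0658 to 0.120). NOC3L lost it without any of these but control 3 (0.0661 to 0.132), and UTP15 and WDR12 without any but control 1 (0.0572 to 0.132 and 0.0618 to 0.102).

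In LNCaP parental cells the same treatment lowered 3 members and raised none, 6.82% of the 44, beside 8.45% of 19393 genes tested (4.04% higher and 4.41% lower), so the share was near the background. The median was -0.18, against -0.01 over all genes. RRS1, a 60S assembly factor that helps bring 5S RNA into the precursor, stood at 43.1, 69.3 and 37.5 TPM in controls and 15.2, 16.6 and 17.3 TPM after Acetalax. All 3 treated libraries lay below all controls, and the log2 fold change was -1.55 ± 0.23 (adjusted p = 0.00195), 2.92-fold lower. POLR1B went from 14.8, 19.8 and 13.1 to 5.66, 5.43 and 8.78 TPM without overlap (log2 -1.30 ± 0.21, adjusted p = 0.00354). WDR3 went from 26.9, 50.7 and 28.4 to 11.9, 10.7 and 21.0 TPM, also without overlap (log2 -1.20 ± 0.28, adjusted p = 0.0216). Within each of these genes, control 2 was the highest control and Acetalax 3 the highest treated library.

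The other members described in every comparison did not pass in LNCaP parental cells. POLR1A changed by 0.04 ± 0.21 (adjusted p = 0.985) and POLR1C by -0.61 ± 0.26 (adjusted p = 0.214), and for both the groups overlapped. For NCL, NPM1 and FBL the values were -0.08, 0.02 and -0.06, with adjusted p of 0.95, 0.997 and 0.965. In the PeBoW complex PES1 gave -0.33 ± 0.16 (adjusted p = 0.293), BOP1 0.06 ± 0.34 (adjusted p = 0.985) and WDR12 -0.21 ± 0.16 (adjusted p = 0.55). Without control 2 and Acetalax 3 together, 23 members passed (5 higher, 18 lower) beside 26.6% of all genes, among them POLR1C (adjusted p = 0.000212), PES1 (0.00502), BOP1 (0.0155) and WDR12 (0.0476). Without Acetalax 3 alone 9 passed, POLR1C included (0.0299). WDR3 lost its call without Acetalax 1 (0.0863) or Acetalax 2 (0.0921). The member median ranged from -0.41 to 0.15 over the 6 libraries left out in turn. It was above 0 without control 2, in a fit that kept Acetalax 3, so its sign depended on which library was left out. Without both, 18 of the 23 members that passed were lower, as given above. With only the 6 compared libraries no member passed, beside 0.882% of all genes, and RRS1, POLR1B and WDR3 had adjusted p-values of 0.0751, 0.0966 and 0.198.

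In PC3 CE cells, 8 members fell and none rose, 18.2% of the 44 beside 8.15% of all genes tested (4.67% higher and 3.47% lower), with a median of -0.23 against 0.01 over all genes. RRS1 stood at 49.0, 47.0 and 47.1 TPM in controls and 18.1, 29.5 and 28.4 TPM after Acetalax (log2 -0.84 ± 0.15, adjusted p = 0.0084). DDX56, a helicase of 60S assembly, went from 93.9, 97.1 and 108 to 52.9, 81.1 and 80.6 TPM (log2 -0.43 ± 0.10, adjusted p = 0.0293). POLR1B went from 44.8, 45.3 and 46.5 to 41.5, 31.7 and 32.2 TPM (log2 -0.38 ± 0.10, adjusted p = 0.033). For none of the 3 did treated and control libraries overlap, and for RRS1 and DDX56 the lowest was Acetalax 1, the library that stood apart. Without it RRS1 changed by -0.66 (adjusted p = 6.57e-05) and DDX56 by -0.30 (0.00219). The further calls were WDR3 at -0.37 ± 0.10 (adjusted p = 0.0491), UTP14A at -0.37 ± 0.10 (adjusted p = 0.0491), TSR1 at -0.35 ± 0.08 (adjusted p = 0.0241), UTP4 at -0.33 ± 0.07 (adjusted p = 0.0198) and NAT10 at -0.30 ± 0.07 (adjusted p = 0.0312). In all, 4 of 17 small subunit and 40S genes fell, with 1 of 3 for RNA polymerase I, 1 of 7 for snoRNPs and 2 of 14 for 60S maturation.

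The remaining members of interest did not pass in PC3 CE cells. POLR1A gave -0.37 ± 0.16 (adjusted p = 0.164), POLR1C -0.06 ± 0.12 (adjusted p = 0.776), PES1 -0.08 ± 0.12 (adjusted p = 0.686), BOP1 -0.34 ± 0.17 (adjusted p = 0.224) and WDR12 -0.07 ± 0.07 (adjusted p = 0.574). NCL, NPM1 and FBL gave -0.11, 0.12 and 0.01 (adjusted p = 0.408, 0.359 and 0.965). For POLR1A the deposited levels fell further, from 40.4 ± 5.54 to 23.4 ± 6.67 TPM without overlap, a log2 ratio of -0.79. POLR1A stayed uncalled in 11 of 13 alternatives and passed as lower in the rest. The list of 25 genes for DNA replication and mitosis had a median of -0.42 in the same comparison with none called, and its summed level ranged from 901 to 2592 TPM over the treated libraries. Without Acetalax 1, 17 members fell and none rose beside 16.4% of all genes, and PES1 passed (adjusted p = 0.0190). Without any 1 control only 1 member passed, RRS1. POLR1B, DDX56, WDR3, UTP14A, TSR1, UTP4 and NAT10 then had adjusted p-values of 0.0734 to 0.160. POLR1B, UTP14A and NAT10 also lost their call without Acetalax 2 (0.0665, 0.0949 and 0.0637) or Acetalax 3 (0.0589, 0.0865 and 0.0553), and WDR3 without Acetalax 2 (0.0647). With only the 6 compared libraries no member passed, beside 1.29% of all genes, and RRS1 had an adjusted p of 0.0990.

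In LNCaP CE cells edgeR called 0 of 44 members, beside 7.4% of all genes (3.34% higher and 4.06% lower), with 4 at an unadjusted p under 0.05 and a median of -0.06 against 0. DESeq2 called 3 members beside 13.6% of all genes, limma on log2(TPM + 1) called 6 beside 11.5%, and edgeR with another scaling (RLE) called 1 beside 7.7%, all of them lower. POLR1B stood at 55.8, 55.9 and 58.8 TPM in controls and 31.4, 28.4 and 29.2 TPM in treated libraries. These did not overlap, and the log2 fold change was -0.73 ± 0.21 (adjusted p = 0.0604) in the fit on all 12 LNCaP libraries. RRS1 stood at 58.2, 61.1 and 60.4 TPM and 36.1, 37.8 and 35.1 TPM, also without overlap, with -0.59 ± 0.22 (adjusted p = 0.149). WDR3, at 68.2, 71.6 and 70.9 and 57.3, 50.4 and 56.0 TPM, gave -0.16 ± 0.27 (adjusted p = 0.847).

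The spread of the LNCaP parental libraries entered that fit. Without LNCaP parental control 2 and Acetalax 3, 21 members passed in LNCaP CE cells (7 higher, 14 lower) beside 34.1% of all genes. With only the 6 libraries compared, 25 passed (9 higher, 16 lower) beside 49.4%. POLR1B passed in both (adjusted p = 5.06e-09 and 9.74e-11). Without that pair of parental libraries, RRS1 (-0.58, adjusted p = 6.73e-06) and WDR3 (-0.15, adjusted p = 0.00666) passed as lower too. NPM1, at 3744, 3692 and 3622 TPM in controls and 4074, 4089 and 4021 TPM after Acetalax, changed by 0.27 ± 0.20 (adjusted p = 0.527) in the first fit and passed as higher in the other 2 (2.47e-05 and 2.05e-07). FBL (0.18 ± 0.25, adjusted p = 0.79) and POLR1C (0.25 ± 0.26, adjusted p = 0.688) likewise passed as higher in those fits, with adjusted p of 0.0279 and 0.000591 for FBL and of 0.00551 and 0.00137 for POLR1C. NCL (0.08 ± 0.27, adjusted p = 0.956) passed as higher only with the compared libraries alone (0.0249). POLR1A (-0.13 ± 0.21, adjusted p = 0.825) passed as lower there (0.000434) and by limma on log2(TPM + 1) (0.0299). PES1, BOP1 and WDR12 gave log2 values of -0.05, -0.04 and -0.02, and none of the 14 alternatives called them. The library values printed above are TPM. On log2(TPM + 1) by limma the member median was -0.20 with -0.09 over all genes, against -0.06 and 0 by edgeR on counts.

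**Figure D2:**
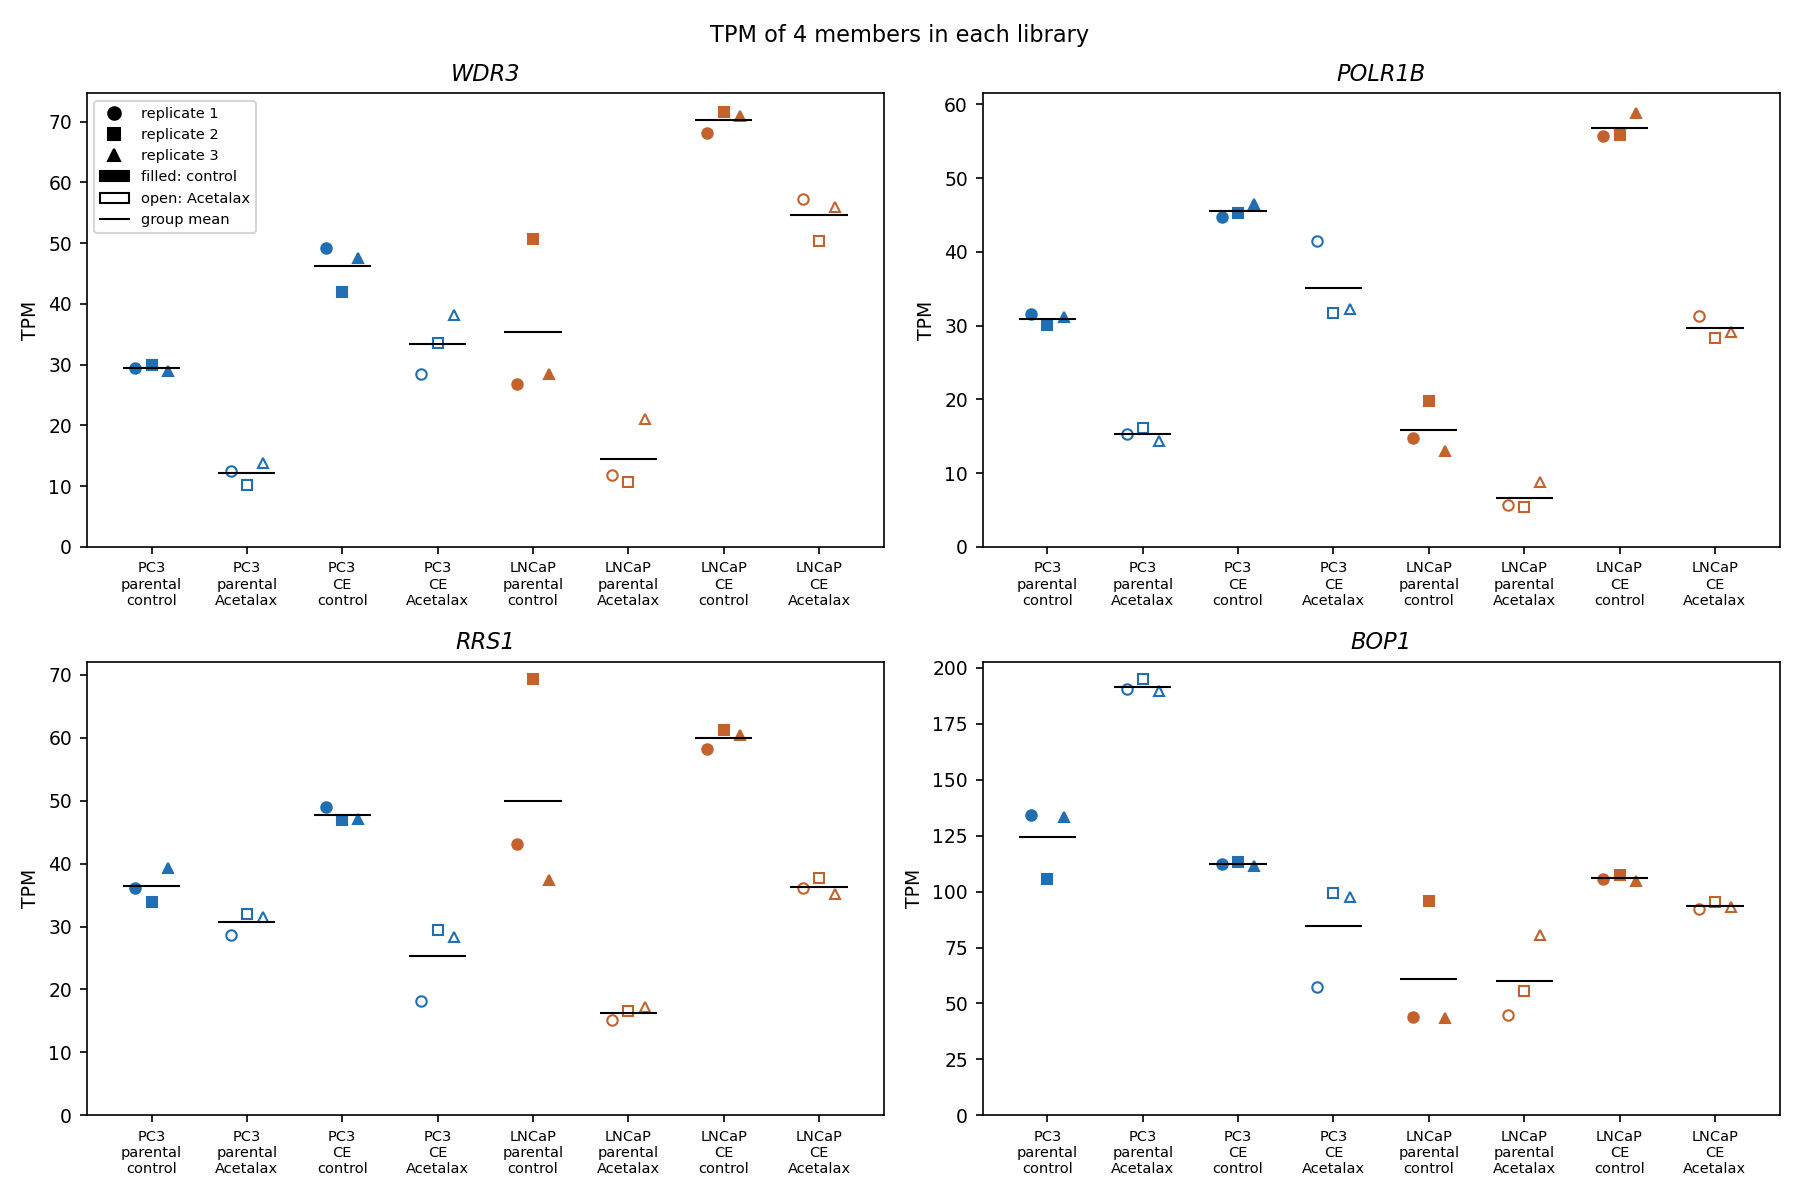
TPM of WDR3, POLR1B, RRS1 and BOP1 in each of the 24 libraries, by group, with bars at group means; filled symbols are controls and open symbols Acetalax. WDR3 and POLR1B fall in both parental lines, RRS1 falls from a control mean of 49.95 to 16.3 TPM in LNCaP parental cells, and BOP1 rises in PC3 parental cells.

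Whether a response differed between CE and parental cells was tested as the difference of the 2 responses. In PC3, 5 of 44 members differed (11.4%, beside 8.03% of all genes, 4.59% higher and 3.44% lower), 4 with a higher and 1 with a lower value in CE cells. WDR3 fell by less in PC3 CE cells, with a difference of 0.84 ± 0.14 (adjusted p = 0.0063), and so did POLR1B, with 0.62 ± 0.14 (adjusted p = 0.0172). NOC3L, which fell in parental cells and stood at 22.6, 23.0 and 22.9 TPM before and 29.8, 22.0 and 22.1 TPM after drug in CE cells, differed by 0.70 ± 0.18 (adjusted p = 0.0372). DDX21 gave responses of -0.25 in parental and 0.21 in CE cells, neither past the threshold, and a difference of 0.46 ± 0.13 (adjusted p = 0.047). BOP1 went the other way, with a difference of -0.97 ± 0.24 (adjusted p = 0.0311). Without PC3 CE Acetalax 1 the count was 20 (10 higher, 10 lower), beside 22.5% of all genes, without PC3 CE Acetalax 2 it was 8, and without any other single library it was 1 to 6. WDR3 passed in all 18 alternatives. POLR1B lost its call without parental Acetalax 3, CE control 1 or CE control 2 (adjusted p = 0.0513 to 0.0569), and BOP1, NOC3L and DDX21 without any of 8 or 9 single libraries (0.0630 to 0.120).

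In LNCaP, 0 members differed between CE and parental responses by edgeR, DESeq2 or limma, beside 1.28% of all genes (0.583% higher and 0.701% lower), and 3 had an unadjusted p under 0.05. Without the pair of LNCaP parental libraries that stood apart the count was 17 (11 higher, 6 lower) beside 19.3% of all genes. Between the parental lines, 1 member of 44 differed, beside 5.05% of all genes (3.15% higher and 1.9% lower). RRS1 fell more in LNCaP than in PC3, where it stood at 36.1, 33.8 and 39.2 TPM before and 28.6, 32.0 and 31.5 TPM after drug, and the difference was -1.31 ± 0.28 (adjusted p = 0.00671), past the threshold in all 21 alternatives. Without LNCaP parental control 2 the count was 5. Between the CE lines 0 members differed by any of these tools, beside 0.0774% of all genes (0.0319% higher and 0.0455% lower), and 0 had an unadjusted p under 0.05.

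MYC is the factor outside the set whose level is given beside these results. In PC3 parental cells it fell from 328 ± 5.04 TPM to 237 ± 3.38 TPM with Acetalax (log2 -0.48 ± 0.07, adjusted p = 0.0026), and in LNCaP parental cells from 148 ± 15.2 to 19.2 ± 12.3 TPM (-2.82 ± 0.39, adjusted p = 0.00136). In PC3 CE cells it rose from 145 ± 5.45 to 209 ± 17.0 TPM (0.61 ± 0.07, adjusted p = 0.000853), while 8 members fell there. In LNCaP CE cells it stood at 177 ± 3.09 and 176 ± 9.26 TPM and did not pass (0.10 ± 0.36, adjusted p = 0.954). Against parental controls, MYC was lower in PC3 CE controls (-1.26 ± 0.07, adjusted p = 1.39e-08), and its difference in LNCaP CE controls did not pass (0.38 ± 0.36, adjusted p = 0.357). The part of MYC in the members' changes was not tested.

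A larger difference lay between CE and parental cells without drug. In PC3, 28 members were higher and 9 lower in CE controls, 84.1% of the 44, beside 77.5% of all 20049 genes (38.5% higher and 39% lower). Most genes differed here, so the sizes are given. The median was 0.52 over the members and -0.01 over all genes. NOLC1 stood at 64.2, 67.8 and 61.7 TPM in parental controls and 185, 181 and 185 TPM in CE controls (log2 1.42 ± 0.07, adjusted p = 2.45e-09, 2.67-fold). NIP7, a 60S assembly factor, went from 31.7, 34.4 and 32.4 to 73.6, 74.3 and 73.4 TPM (1.16 ± 0.20, adjusted p = 0.000229). FBL went from 217, 211 and 230.2 to 555, 535 and 535 TPM (1.15 ± 0.07, adjusted p = 3.42e-08). For all 3 genes every CE library was above every parental one.

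The members that were lower in PC3 CE cells were led by RRP12, a 40S and 60S export factor, which stood at 52.7, 44.8 and 49.5 TPM in parental and 28.0, 29.6 and 29.0 TPM in CE controls (-0.78 ± 0.11, adjusted p = 4.3e-05). PPAN followed, at 128, 112 and 120.4 and 76.5, 74.5 and 82.0 TPM (-0.71 ± 0.18, adjusted p = 0.00366), and DDX10, at 49.4, 52.1 and 51.3 and 34.0, 39.9 and 34.0 TPM (-0.71 ± 0.11, adjusted p = 0.000101). None of these groups overlapped. The abundant proteins differed in direction. NCL rose from 438, 471 and 429 to 996, 963 and 982 TPM (1.04 ± 0.09, adjusted p = 3.92e-07) and NPM1 by 0.77 ± 0.08 (adjusted p = 4.83e-06), while DDX21 was lower (-0.37 ± 0.09, adjusted p = 0.00258). RNA polymerase I subunits also split, with POLR1B higher (0.56 ± 0.10, adjusted p = 0.000194), POLR1C lower (-0.43 ± 0.12, adjusted p = 0.00543) and POLR1A not called (0.17 ± 0.16, adjusted p = 0.324). For POLR1A the deposited levels gave another size, since the TPM rose from 21.5 ± 3.94 to 40.4 ± 5.54, a log2 ratio of 0.91, and limma on log2(TPM + 1) called it higher (adjusted p = 0.0021). It also passed without PC3 CE Acetalax 1 (0.0133). In the PeBoW complex PES1 (1.14 ± 0.12, adjusted p = 2.88e-06) and WDR12 (0.55 ± 0.07, adjusted p = 2.22e-05) were higher, and BOP1 was not called (-0.22 ± 0.17, adjusted p = 0.257, and 0.0206 as lower without PC3 CE Acetalax 1).

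In LNCaP the rise was wider. Of the 44 members, 39 were higher and 1 was lower in CE than in parental controls, 90.9%, beside 75.3% of 19393 genes (36% higher and 39.3% lower), and the median was 1.09 against -0.06 over all genes. All 17 small subunit and 40S genes, all 3 RNA polymerase I subunits and all 3 abundant nucleolar genes were higher. NOC3L stood at 3.96, 7.39 and 4.26 TPM in parental and 30.5, 29.9 and 31.1 TPM in CE controls (log2 2.76 ± 0.30, adjusted p = 8.72e-06, 6.78-fold). WDR75, of the small subunit processome, went from 26.1, 35.4 and 25.1 to 132, 119 and 130.4 TPM (2.20 ± 0.16, adjusted p = 2.86e-07). GRWD1, a chaperone of a 60S protein, went from 14.0, 33.7 and 13.8 to 94.1, 94.0 and 92.9 TPM (2.11 ± 0.36, adjusted p = 0.000255). CE and parental libraries did not overlap for these genes, and control 2 was the highest parental library in each.

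GNL3 (nucleostemin) was the 1 member lower in LNCaP CE controls, at 208, 209 and 204 TPM against 311, 264 and 341 TPM (-0.37 ± 0.08, adjusted p = 0.00137), and here control 2 was the lowest parental library. NCL stood at 421, 714 and 429 and 1422, 1484 and 1440.3 TPM (1.55 ± 0.27, adjusted p = 0.000349), with NPM1 at 1.37 ± 0.20 (adjusted p = 9.29e-05) and FBL at 1.16 ± 0.26 (adjusted p = 0.00169). The polymerase subunits gave 1.55 ± 0.21 (adjusted p = 5.21e-05) for POLR1A, 1.74 ± 0.21 (adjusted p = 2.05e-05) for POLR1B and 0.95 ± 0.26 (adjusted p = 0.00673) for POLR1C. For POLR1A the ratio of mean TPM was larger, at 2.47 on the log2 scale. In the PeBoW complex PES1 gave 1.24 ± 0.17 (adjusted p = 4.02e-05), WDR12 1.56 ± 0.16 (adjusted p = 5.36e-06) and BOP1 0.88 ± 0.34 (adjusted p = 0.0347). BOP1 lost its call without parental control 1, parental control 3 or any 1 CE control (adjusted p = 0.0625 to 0.123). Members not called were NOC2L, NOP56, GNL2 and RRS1. Without parental control 2 alone BOP1 changed by 1.45 (adjusted p = 0.000312). Without parental control 2 and Acetalax 3, all 44 members passed (43 higher, 1 lower) beside 84.8% of all genes, and the median was 1.42.

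The 2 lines share no library in these comparisons. Of the 28 members higher in PC3 CE and the 39 higher in LNCaP CE cells, 26 were the same. GNL3 was lower in CE cells of both lines (-0.39 ± 0.12, adjusted p = 0.0102 in PC3). A further 8 were lower in PC3 CE and higher in LNCaP CE cells, namely DKC1, RRP9, POLR1C, UTP20, DDX10, RRP12, PPAN and DDX21. Such overlaps between the lines were not counted over all genes, so none is read as a trait of the members. UTP20, singled out after its values were seen, stood at 17.1, 16.7 and 13.5 and 11.9, 12.0 and 12.5 TPM in PC3 (-0.43 ± 0.18, adjusted p = 0.0457) and 4.15, 7.47 and 5.01 and 22.6, 21.4 and 23.4 TPM in LNCaP (2.10 ± 0.28, adjusted p = 3.95e-05). The LNCaP change was the larger one for 41 of 44 members, by a median of 0.85 on the log2 scale. The difference of the 2 changes was not tested. Genes for DNA replication and mitosis were also mostly higher in CE controls. In PC3, 25 of 25 were called higher (100%, beside 77.5% of all genes called and 38.5% called higher, median 2.73). In LNCaP, 18 of 25 were called higher (72%, beside 75.3% and 36%, median 1.56). This list had its larger median in PC3, whereas the members had theirs in LNCaP (0.52 in PC3 and 1.09 in LNCaP). Without LNCaP parental control 2, in a check chosen after the data were seen, 23 of the 25 were higher in LNCaP CE controls (92%, beside 77.2%, median 2.04). Their summed level went from 493 to 531 TPM in PC3 parental controls to 2745 to 2819 TPM in PC3 CE controls, and from 1137 to 2567 TPM to 3752 to 3826 TPM in LNCaP. Their part in the members' change was not tested, and nor was that of the epithelial and fibroblast markers given above.

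**Figure D3:**
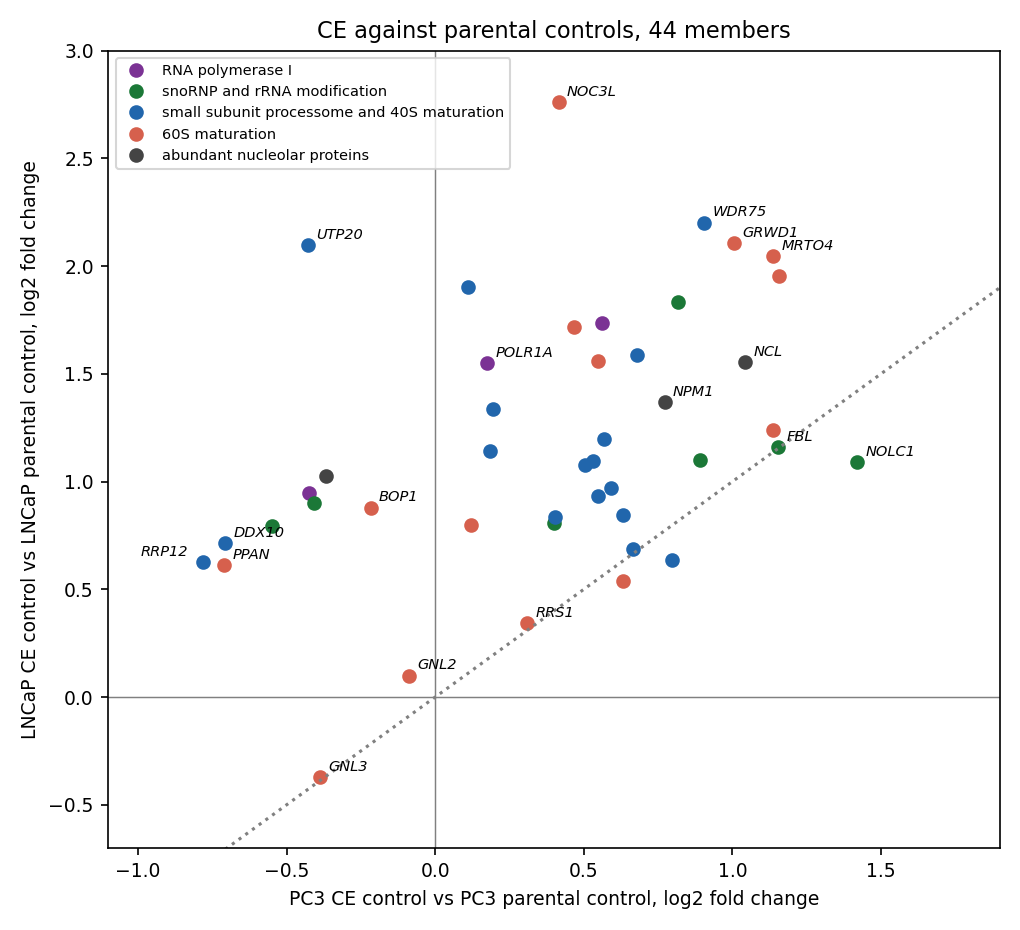
Each point is 1 of the 44 members, coloured by role; the x axis is the log2 fold change of CE against parental controls in PC3, the y axis the same in LNCaP, and the dotted line marks equal changes. Most points lie above the line, and NOC3L reaches 2.76 in LNCaP against 0.42 in PC3. Members called higher number 28 in PC3 and 39 in LNCaP, with 26 in both, an overlap not counted over all genes.

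Between lines, parental LNCaP controls were lower than parental PC3 controls for 17 members and higher for 10, 61.4%, beside 70.3% of 21955 genes (35.5% higher and 34.7% lower), with a median of -0.14. All 3 RNA polymerase I subunits were lower in LNCaP, at -0.83, -0.74 and -0.79 for POLR1A, POLR1B and POLR1C (adjusted p = 0.000623, 0.000399 and 0.00195). NOC3L (-1.76 ± 0.23, adjusted p = 1.02e-06), UTP20 (-1.48 ± 0.24, adjusted p = 1.51e-05) and HEATR1 (-1.19 ± 0.22, adjusted p = 6.12e-05) were the lowest against PC3, and NOLC1 (1.13 ± 0.16, adjusted p = 2.89e-06) and FBL (0.73 ± 0.19, adjusted p = 0.00185) the highest. Without LNCaP parental control 2 the median was -0.53, with 24 members lower and 5 higher beside 67.4% of all genes. In CE controls the order was turned, with 34 members higher in LNCaP and 0 lower (77.3%, beside 41% of all genes, 16.7% higher and 24.2% lower) and a median of 0.61. On the count scale all 44 had a positive value, from 0.06 for BOP1 to 1.05 for RRP9 (adjusted p = 0.00279). By the ratio of mean TPM, BOP1 (-0.08) and TBL3 (-0.02) were below 0 on the log2 scale. Leaving out any 1 of the 6 CE controls gave 25 or 26 members. The share of all genes in those fits is not given here, so the drop is not read as a result about the members.

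The wider pathway was followed in 105 other ribosome biogenesis genes. Under Acetalax, 3 rose and 19 fell in PC3 parental cells (21%, beside 7.8% of all genes). In LNCaP parental cells 1 rose and 9 fell (9.52% beside 8.45%), in PC3 CE cells 1 and 10 (10.5% beside 8.15%). In LNCaP CE cells 2 rose and 5 fell (6.67% beside 7.4%). Taken over both directions, these last shares were near those of all genes. By direction most called genes fell, whereas 4.04%, 4.67% and 3.34% of all genes rose and 4.41%, 3.47% and 4.06% fell, in that order. Among those called, the largest falls were those of RIOK2, a kinase of late 40S maturation (-1.01 ± 0.13, adjusted p = 0.00144), and MPHOSPH10 (-0.90 ± 0.14, adjusted p = 0.00328) in PC3 parental cells, with UTP3 (-1.18 ± 0.24, adjusted p = 0.0126) and again RIOK2 (-1.16 ± 0.19, adjusted p = 0.00365) in LNCaP parental cells. TAF1D, a subunit of the RNA polymerase I selectivity factor, rose in LNCaP parental (0.94 ± 0.11, adjusted p = 0.000491), PC3 CE (0.87 ± 0.12, adjusted p = 0.00198) and LNCaP CE cells (0.75 ± 0.11, adjusted p = 0.00286). The largest rises in PC3 parental cells were those of DDX51 (0.48 ± 0.08, adjusted p = 0.00408) and PELP1 (0.35 ± 0.09, adjusted p = 0.0312), and RSL24D1 also rose in LNCaP CE cells (0.45 ± 0.11, adjusted p = 0.0367). Among genes called in CE cells, the largest falls were those of UTP3 (-0.70 ± 0.08, adjusted p = 0.000813) and POLR1F (-0.56 ± 0.14, adjusted p = 0.0336) in PC3, and NOL9 (-0.72 ± 0.16, adjusted p = 0.0214) and ZNHIT6 (-0.56 ± 0.10, adjusted p = 0.00873) in LNCaP.

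Against parental controls, 43 of these 105 genes were higher and 30 lower in PC3 CE controls (69.5%, beside 77.5% of all genes, median 0.10). In LNCaP CE controls 80 were higher and 1 lower (77.1% beside 75.3%, median 0.85). TEX10 (1.79 ± 0.09, adjusted p = 3.56e-09) and RUVBL1 (1.78 ± 0.21, adjusted p = 7.52e-06) rose most in PC3 CE, and TAF1D (-1.85 ± 0.12, adjusted p = 4.35e-08) and TAF1A (-1.72 ± 0.11, adjusted p = 4.66e-08) were the lowest. In LNCaP CE, MDN1, the large AAA ATPase of 60S maturation (3.03 ± 0.26, adjusted p = 9.46e-07), and TCOF1 (treacle, 2.35 ± 0.38, adjusted p = 0.00019) rose most, and NVL (-1.63 ± 0.09, adjusted p = 1.72e-08) was the 1 lower gene. The 79 cytosolic ribosomal protein genes had medians of -0.13 in PC3 CE controls (28 higher, 34 lower, 78.5% beside 77.5%) and 0.02 in LNCaP CE controls (14 higher, 11 lower, 31.6% beside 75.3%). Under Acetalax 1 rose and 0 fell in PC3 parental cells (1.27% beside 7.8% of all genes), and 3 rose in LNCaP CE cells (3.8% beside 7.4%). In LNCaP parental and PC3 CE cells 0 were called, beside 8.45% and 8.15% (4 and 28 at an unadjusted p under 0.05). Most values were small but positive outside PC3 parental cells. The median was -0.03 in PC3 parental cells (34 of 79 positive) and 0.12 in LNCaP parental cells (79 of 79). It was 0.17 in PC3 CE and 0.21 in LNCaP CE cells (78 of 79 in each).

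**Figure D4:**
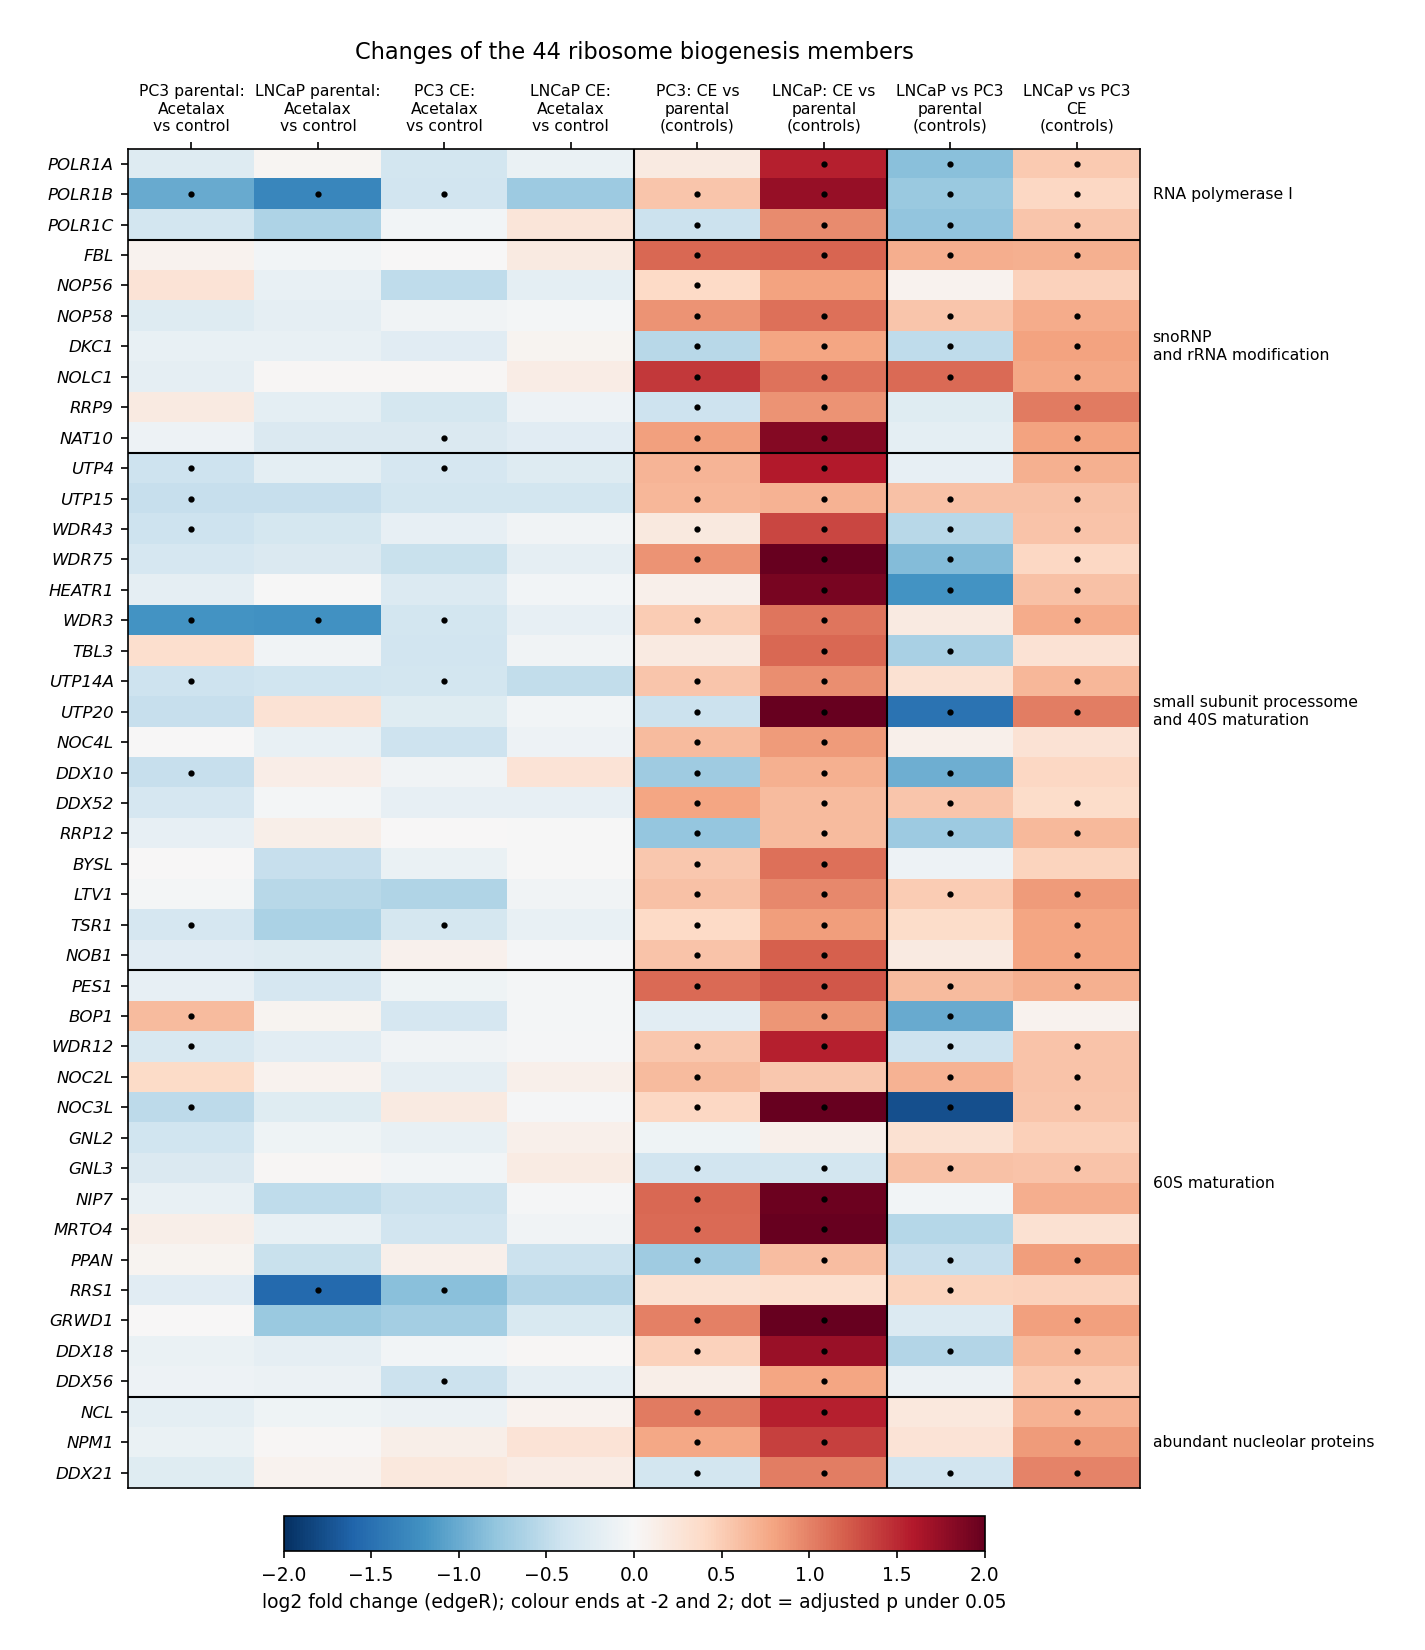
Rows are the 44 members grouped by role and columns are 8 comparisons; colour is the log2 fold change by edgeR, ending at -2 and 2, and a dot marks an adjusted p under 0.05. The 2 columns of CE against parental controls hold most dots (37 and 40), the 4 columns of Acetalax against control hold 11, 3, 8 and 0.

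Other features of the members bear on how their values can be read. By GENCODE 29 on GRCh38, 9 of 44 members (20.5%) hold genes for snoRNAs or scaRNAs, 28 in all, against 274 of 19969 protein-coding genes (1.37%). GNL3 holds 6, NOP56 5, NOP58 4, NCL and WDR43 3 each, and DKC1, TSR1 and PPAN 2 each, and POLR1C 1. These small RNAs were not analysed here. In 10 members named pseudogenes exist that could share reads, with 45 of them for NPM1, and NPM1 levels are uncertain to that extent. A coding gene overlaps on the same strand for 5 members, among them PPAN, which lies inside the read-through gene PPAN-P2RY11. On the other strand 15 members are overlapped, WDR3 by SPAG17 among them, and the kit was directional, but how the counting used strand is not given in these sources.

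Promoters were read for the 37 members found in the RefSeq table (GRCh38.p14), as the 250 bases before each start. The sequence CACGTG, the E-box core that MYC with MAX binds and that is its own reverse complement, was in 5 of 37 members (13.5%), in 15 of 90 other ribosome biogenesis genes (16.7%) and in 10.7% of 12137 protein-coding genes tested. The 5 are shown because MYC is the factor named for this pathway, with capitals for CACGTG, all on the plus strand. UTP20 (chr12:101280045-101280104) and UTP14A (chrX:129905914-129905973) are given as 60 bases outside the annotated gene. DDX21 (chr10:68956604-68956633), NAT10 (chr11:34105599-34105628) and UTP4 (chr16:69132619-69132648) are given as 30 bases that reach into the gene as GENCODE draws it.
UTP20: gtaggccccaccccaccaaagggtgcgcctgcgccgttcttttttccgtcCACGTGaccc
UTP14A: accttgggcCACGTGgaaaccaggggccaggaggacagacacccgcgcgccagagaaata
DDX21: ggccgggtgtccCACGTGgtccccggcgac
NAT10: tttaatgcgcttgcgCACGTGctgtctacc
UTP4: tgagagcgcgcgcgCACGTGgggccggggc

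Of these 5, NAT10 (0.82 and 1.83 on the log2 scale), UTP4 (0.68 and 1.59) and UTP14A (0.55 and 0.93) were higher in CE cells of both lines. DDX21 and UTP20 were among the 8 members lower in PC3 CE and higher in LNCaP CE cells. CCGGAA on either strand, searched after the sequences had been seen, was in 18 of 37 members (48.6%), in 54.4% of the other ribosome biogenesis genes and in 27.1% of the protein-coding genes tested. Median GC content was 63.2% in the members' promoters and 64.0% in those of the genes tested. A match describes the letters in these windows and no binding was measured.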

How the data were processed

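Poly(A) RNA from 24 libraries was sequenced as paired reads from directional libraries. Per the submitters' processing notes, FastQC, STAR 2.7 and RSEM were used with GRCh38. Not given in the sources used here are the annotation release and the strand setting. The authors deposited RSEM expected counts and TPM for 60660 features. Of the expected counts 10.2% were not whole, and all were rounded. Columns that match no sample (2) were not used. Features were filtered with edgeR's filterByExpr (minimum count 10), scaled by TMM and tested with edgeR 4.0.16 by the quasi-likelihood test in R 4.3.3, with Benjamini-Hochberg adjustment over all genes and a threshold of 0.05. Fits used the 12 libraries of a line, or all 24 for comparisons between lines. Errors of log2 fold changes are standard errors, and those of TPM are SDs over 3 libraries. Responses and CE changes of 1 line share control libraries. Alternatives were RLE scaling, no filter, DESeq2 1.42.0, limma 3.58.1 on log2(TPM + 1) or log2(TPM + 0.1) for genes with a group mean of at least 1 TPM, a replicate block, only the compared libraries and libraries left out. The naming rule took up to 3 called members per direction with the largest change in each response and CE change, POLR1A, POLR1B, POLR1C, NCL, NPM1, FBL, PES1, BOP1 and WDR12 always, MYC, and up to 2 other ribosome biogenesis genes per direction; further called members of a response are also named. Members, gene lists and tests were chosen with earlier results of these data known. The fitting procedure was tested on simulated data. Their spread was set equal for every gene and no library stood apart, unlike in these data, so that test does not cover such libraries.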

Additional observations from a re-analysis of the deposited data

Results flagged for a closer look

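In PC3, the response to Acetalax differed between CE and parental cells by edgeR's test of the difference for 5 members, 11.4% of the 44 beside 8.03% of all genes. The difference, CE minus parental on the log2 scale, was 0.84 ± 0.14 (adjusted p = 0.0063) for WDR3, 0.62 ± 0.14 (adjusted p = 0.0172) for POLR1B, 0.70 ± 0.18 (adjusted p = 0.0372) for NOC3L, 0.46 ± 0.13 (adjusted p = 0.047) for DDX21 and -0.97 ± 0.24 (adjusted p = 0.0311) for BOP1. Of these, WDR3 kept its call in all 18 alternatives. POLR1B lost it without any 1 of 3 libraries (adjusted p = 0.0513 to 0.0569), BOP1 and NOC3L without any 1 of 8, and DDX21 without any 1 of 9 (0.0630 to 0.120 over these genes). Between the parental lines, the response of RRS1 differed by -1.31 ± 0.28 (adjusted p = 0.00671), LNCaP minus PC3, the 1 member called beside 5.05% of all genes. No explanation of these differences was tested.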

How the results depend on the processing

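No alternative reversed the sign of a named member that passed in the main fit or in that alternative. Sign changes of members uncalled in both were counted as keeping their side. In LNCaP parental cells the values of NCL (-0.41 to 0.29), NPM1, FBL, POLR1A and BOP1 (-0.29 to 0.62) spanned 0. Those of RRS1, POLR1B, WDR3, POLR1C, PES1 and WDR12 stayed below 0. Some member medians also changed sign, as given below. Over the named members, 1024 settings kept the side of the threshold, 37 gained a call and 154 lost one.

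Shares in parentheses are those of all genes called under the same setting. Without the filter on low counts, 6 members passed in PC3 parental (2.86%) and 3 in PC3 CE cells (3.88%), against 11 and 8. DESeq2 called 13 in PC3 CE cells (14.7%), 9 for the PC3 response difference (13.7%), 5 in LNCaP parental (13.1%) and 3 in LNCaP CE cells (13.6%), and the median between CE lines was 0.63. With limma on log2(TPM + 1) and on log2(TPM + 0.1) the counts were 7 in PC3 parental (7.81% and 6.38%), 8 in LNCaP parental (11.5% and 9.69%) and 6 in LNCaP CE cells (11.5% and 10.3%), and 3 for the PC3 response difference (7.19% and 5.83%). Their medians, in that order, were -0.0599 and -0.0544 for the PC3 response difference (0.07 by edgeR; all genes -0.06 on log2(TPM + 1) and 0.04 by edgeR), -0.20 and -0.20 in LNCaP CE cells, 0.49 and 0.50 between CE lines, and 0.11 and 0.12 for the CE response difference (0.23 by edgeR). RLE scaling gave 1 in LNCaP CE cells (7.7%) and a median of 0.63 between CE lines.

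With replicate number as a block, the counts were 7 in PC3 parental cells (5.31%), 4 in PC3 CE cells (4.96%) and 2 for the PC3 response difference (5.02%). The numbers did not pair the samples, since same-numbered deviations correlated at -0.53 to 0.36 and no comparison had all 3 above 0.1.

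Without PC3 CE Acetalax 1, 29 members passed in PC3 parental cells (27.3%). Without LNCaP parental control 2 and Acetalax 3 together, 23 passed in LNCaP parental (26.6%) and 21 in LNCaP CE cells (34.1%), 17 for the LNCaP response difference (19.3%) and 5 for the parental response difference (6.97%), and the median between parental lines was -0.53. With only the compared libraries, 25 passed in PC3 parental cells (27%), 0 in LNCaP parental cells (0.882%), 0 in PC3 CE cells (1.29%) and 25 in LNCaP CE cells (49.4%), and the median between CE lines was 0.63.

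Leaving out 1 library at a time gave 4 to 6 in PC3 parental cells (2.77% to 5.51%), 1 to 17 in PC3 CE cells (2.45% to 16.4%), 2 to 9 in LNCaP parental cells (4.84% to 13%), 1 to 20 for the PC3 response difference (3.67% to 22.5%), 0 to 1 for the LNCaP response difference (0.394% to 4.05%) and 1 to 5 for the parental response difference (3.06% to 6.35%). The medians ranged from -0.29 to -0.15 in PC3 CE cells, from -0.0689 to -0.0240 in LNCaP CE cells, from 0.47 to 0.53 for the PC3 CE change and from 0.92 to 1.46 for the LNCaP CE change. They ranged from -0.18 to 0.38 for the LNCaP response difference, from -0.53 to 0.0176 between parental lines, from 0.61 to 0.63 between CE lines and from 0.14 to 0.30 for the CE response difference. Apart from the smaller number of libraries or genes, the cause of these shifts was not tested. At 3 libraries a group, a member that missed the threshold was not shown to be unchanged.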
